A study of Mus musculus with 16 samples.

Results

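*Il17a*, *Il17f*, and *Il22* encode the signature cytokines of type 3 immunity. They were examined in group 2 innate lymphoid cells (ILC2s), a cell type better known for the type 2 cytokines IL-5 and IL-13. The 3 genes are 3 of 51912 genes in the count table. They were chosen by their measured levels in these libraries, as genes noted to be higher when neuromedin U (NMU) or calcitonin gene–related peptide (CGRP) was added to ILC2s, so their levels across treatments are given as a description, and tests are given only for genotype, which was not used to choose them.

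IL-17A and IL-17F are closely related proteins that pair as homodimers or as a heterodimer and signal through a receptor made of IL-17RA and IL-17RC, which drives epithelial cells and fibroblasts to make neutrophil chemoattractants and antimicrobial peptides. IL-22 belongs to the IL-10 family, binds IL-22RA1 with IL-10RB, and acts on epithelium rather than on leukocytes. All 3 are typical of Th17 cells, γδ T cells, and ILC3s, and inflammatory ILC2s are known to be able to produce IL-17 as well.

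The libraries came from lung ILC2s of WT mice and of mice that lack the phosphatase PAC1, labelled Pac1-KO. PAC1 is encoded by *Dusp2*. The mice were 6 to 8 weeks old. Sorted ILC2s were expanded for 1 to 2 weeks with IL-2 at 50 ng/mL and IL-7 at 100 ng/mL and then stimulated for 4 hours, and about 500 cells were sorted for each library. Every group received IL-7 at 100 ng/mL. The basal group had IL-7 alone, the second also had the alarmin IL-33 at 100 ng/mL, and the other two had IL-7, IL-33, and either CGRP or NMU at 500 ng/mL. CGRP and NMU are neuropeptides that respectively restrain and activate ILC2s. Genotype and treatment gave 8 groups of 2 libraries, or 16 libraries. The cells are thus cultured populations rather than cells taken directly from lung, and the sources do not say whether the 2 libraries of a group came from different mice, so that p-values measure only the spread between these libraries.

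The total count per library was 6764992 at the least and 15963357 at the most (median 11071278). Levels are given as CPM, counts scaled to 1000000 per library after correction of the library sizes by edgeR's TMM method, and 3 counts, the floor used for bounds, equal 0.188 to 0.443 CPM. PCR copies are not independent molecules, so the floor covers counting error only. *Dusp2* had 86 counts in all, 57 in the second WT library with IL-7 and 29 in the first WT library with NMU. It was at 0 in all 8 Pac1-KO libraries and also in 6 of 8 WT libraries, so that its level does not tell the genotypes apart in most libraries.

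*Il17a* (ENSMUSG00000025929) lies on chromosome 1 at 20730905 to 20734496 on the plus strand of GRCm38. *Il17f* (ENSMUSG00000041872) lies on the same chromosome at 20777146 to 20790617 on the minus strand. The 2 genes are 42649 bases apart. *Il22* (ENSMUSG00000074695) is on chromosome 10 at 118204942 to 118210047 on the plus strand. Its near copy *Iltifb* lies 79581 bases away and shares 97.3% of bases over a stretch of 1111, so reads could be split between them, but *Iltifb* had 10 counts over the 16 libraries. Of the 4 annotated transcripts of *Il17f*, 2 hold a stretch of up to 146 bases that also occurs, at 90% identity or more, in transcripts of 541 other genes. No such stretch of 100 bases or more was found for *Il17a*.

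The sequences just upstream of the *Il17a* and *Il17f* transcription starts are shown because the 2 neighbouring genes had unlike levels with CGRP while both were high with NMU. They are the 250 bases before the RefSeq start in GRCm38.p6, read 5′ to 3′ on the strand of the gene. Capitals mark AGGTCA, the core bound by RORα, the product of *Rora*, and TGACG, the half-site of the cAMP response element to which CREB and CREM bind, on either strand (TGACCT and CGTCA are the same letters on the other strand). The *Il17a* window is chr1:20730655-20730904 (plus strand) and the *Il17f* window is chr1:20784271-20784520 (minus strand). The *Il17f* window lies inside the annotated span of the gene, 20777146 to 20790617. It thus stands before 1 RefSeq start, and windows before other annotated starts of *Il17f* were not examined.
Il17a: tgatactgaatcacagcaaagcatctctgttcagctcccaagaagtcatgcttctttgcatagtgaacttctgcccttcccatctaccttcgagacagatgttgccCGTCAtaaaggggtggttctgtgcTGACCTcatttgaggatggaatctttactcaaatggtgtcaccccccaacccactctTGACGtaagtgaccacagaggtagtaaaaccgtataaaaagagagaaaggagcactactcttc
Il17f: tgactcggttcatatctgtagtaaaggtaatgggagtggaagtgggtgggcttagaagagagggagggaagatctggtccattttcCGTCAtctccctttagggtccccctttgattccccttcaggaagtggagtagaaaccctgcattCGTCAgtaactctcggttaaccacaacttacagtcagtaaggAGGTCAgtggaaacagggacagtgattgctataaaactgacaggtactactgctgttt

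Both windows held 1 AGGTCA and 2 TGACG. In *Il17a* the AGGTCA ran from base -120 to -115 on the strand opposite to the gene, and in *Il17f* from -58 to -53 on the strand of the gene, where base -1 is the last before the start. Of 32536 windows of the same length before RefSeq starts, 14% held AGGTCA and 17.9% held TGACG. Both windows also held ACCACA, the core bound by RUNX factors, which 14% of all windows held. *Il17f* alone of the pair had GGAAA, the core bound by NFAT factors, on 2 occasions. *Il17a* alone had TGANTCA once, as TGAATCA. That pattern lets any base stand in the middle and so is looser than the AP-1 site. GGAAA and TGANTCA were present in 55.7% and 6.73% of all windows. The STAT motif TTCNNNGAA was in none of the 3 members' windows and in 7.04% of all windows, and the *Il22* window held GGAAA alone of the 6 motifs. These matches describe the letters of the windows and were not tested for binding.

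Of the 3 genes, *Il17a* was the most restricted to NMU. With NMU the WT libraries had 228 and 157 CPM and the Pac1-KO libraries 512 and 319 CPM. With IL-33 alone it was at 0 in all 4 libraries. The 4 libraries with NMU were thus the highest of the 16, and did not overlap with any other group. Against the floor of the IL-33 libraries, the mean level with NMU was at least 736-fold higher in WT and at least 2002-fold higher in Pac1-KO ILC2s.

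CGRP gave little *Il17a* in WT cells. The WT libraries had 2.31 CPM and 0, and the Pac1-KO libraries 12.7 and 31.4 CPM. These values rest on 26, 0, 125, and 244 counts. The mean with CGRP was at least 4.42-fold higher than the floor with IL-33 in WT and at least 106-fold higher in Pac1-KO libraries. Beyond these groups, 1 library had any *Il17a*, the first Pac1-KO library with IL-7, at 5.66 CPM or 65 counts, while its replicate was at 0.

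*Il17f*, unlike *Il17a*, was detected in every library. With IL-7 alone it had 27.8 and 10.9 CPM in WT and 0.436 and 31.2 CPM in Pac1-KO libraries. With IL-33 the values were 22.2 and 10.003 CPM in WT and 40.8 and 15.96 CPM in Pac1-KO libraries. The basal and IL-33 groups overlapped with each other in both genotypes, and the difference between IL-33 and IL-7 was within the spread. The fitted log2 difference of IL-33 against IL-7 was 0.30 (SE 0.97). It was -0.27 (SE 0.78) on the WT libraries only, -0.21 without the first Pac1-KO library with IL-7, and -0.15 without the first Pac1-KO library with IL-33.

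With CGRP, *Il17f* had 417 and 436 CPM in WT and 148 and 54.5 CPM in Pac1-KO libraries. With NMU it had 613 and 366 CPM in WT and 1300 and 1284 CPM in Pac1-KO libraries. Every library with CGRP or NMU was above every library with IL-7 or IL-33. In WT ILC2s the CGRP and NMU groups overlapped, with means of 426 ± 13.2 and 490 ± 175 CPM (SD, *n* = 2), whereas in Pac1-KO ILC2s they were 101 ± 66.3 and 1292 ± 11.3 CPM and did not overlap.

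As log2 differences from IL-33 with both genotypes in the fit, *Il17f* was higher by 5.22 (SE 0.42) with NMU and by 3.30 (SE 0.73) with CGRP. For NMU the separate values were 4.94 (SE 0.54) in WT and 5.51 (SE 0.57) in Pac1-KO libraries. For CGRP they were 4.75 (SE 0.48) in WT and 1.85 (SE 0.73) in Pac1-KO libraries. The comparisons share the IL-33 libraries. In these bulk libraries, more cells with the transcript and more transcript per cell cannot be told apart.

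*Il22* went against the description under which it was chosen. It was at 0 in 12 of 16 libraries and had 340 counts in all. With CGRP it was at 0 in all 4 libraries, and with NMU 1 library of 4, the second WT library, had 2.34 CPM or 21 counts. The only group with the transcript in both libraries was Pac1-KO with IL-33, at 9.78 and 10.9 CPM, or 172 and 134 counts. The remaining library with counts was the second WT library with IL-7, at 1.19 CPM or 13 counts. Thus no group with NMU or CGRP had *Il22* in both of its libraries. In WT a rise with CGRP was not detectable at this depth. With NMU the WT mean was at least 4.47-fold above the floor with IL-33, on the counts of 1 library alone. In Pac1-KO libraries the level was instead lower than with IL-33, by at least 37.2-fold with NMU and at least 30.0-fold with CGRP.

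**Figure D1:**
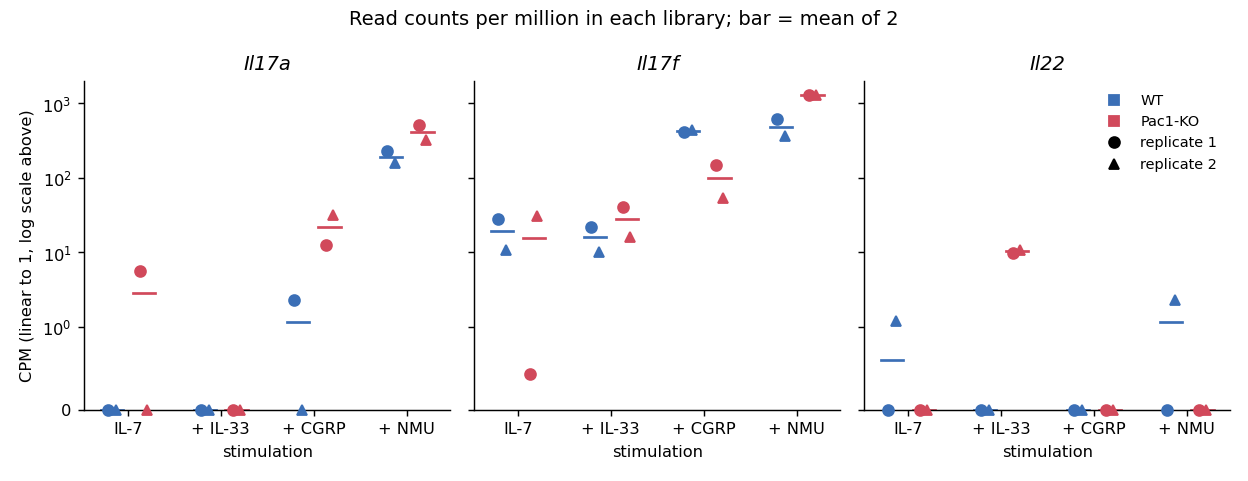
CPM of *Il17a*, *Il17f*, and *Il22* in each library by stimulation (x axis), on an axis that is linear up to 1 CPM and logarithmic above, with WT in blue, Pac1-KO in red, circles and triangles for replicates 1 and 2, and bars for the mean of 2. *Il17a* is high with NMU only, *Il17f* is high with both neuropeptides, and *Il22* is above 0 in both libraries of a single group, Pac1-KO with IL-33.

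The order of the 8 groups by mean level differed between the members. For *Il17a* it was Pac1-KO with NMU (415 CPM), WT with NMU (193 CPM), and Pac1-KO with CGRP (22.1 CPM). Each of these was clear of the next group, and the remaining 5 groups overlapped with their neighbours. For *Il17f* it was Pac1-KO with NMU, WT with NMU, WT with CGRP, Pac1-KO with CGRP, and then the 4 groups without a neuropeptide, which overlapped with their neighbours.

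Per length, the 2 IL-17 transcripts were closer than their CPM show, because the annotated exons of *Il17f* span 2022 bases and those of *Il17a* 1171. The length of *Il17f* joins the exons of its 4 annotated transcripts. Its level per length would be higher if a shorter transcript was expressed, which was not tested. In CPM per kilobase of exon (RPKM), *Il17f* was 1.35 to 2.33 times *Il17a* in the 4 libraries with NMU. *Il17a* made up 30.0% to 42.5% of the sum of the 2 in these libraries. With CGRP the share of *Il17a* was 0.948% and 0% in WT, and 12.8% and 49.9% in Pac1-KO libraries. In the first Pac1-KO library with IL-7 it was 95.7%, on 70 counts of both genes. The ratio of the 2 transcripts thus varied with NMU as well, also between the 2 Pac1-KO libraries (1.47 and 2.33), and ranged more widely with CGRP.

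The type 2 cytokines of the same cells give the scale. With NMU, *Il5*, which supports eosinophils, had a mean of 10146 RPKM in WT and 16790 RPKM in Pac1-KO libraries. *Il9*, a mast cell and ILC2 growth factor, had 5007 and 7205 RPKM, and *Il13*, which drives mucus and airway reactivity, 106 and 269 RPKM. At 164 and 355 RPKM for *Il17a* and 242 and 639 RPKM for *Il17f*, the IL-17 transcripts with NMU were per length above *Il13* in mean level and far below *Il5* and *Il9*. With CGRP in WT libraries, *Il17f* was at 211 RPKM beside 8.81 RPKM for *Il13*, 49.5 RPKM for *Il9*, and 110 RPKM for *Il4*, and far below *Il5* at 6471 RPKM. In Pac1-KO libraries with CGRP, *Il17f* had a mean of 50.1 RPKM, below *Il4* at 72.0 RPKM and *Il5* at 5923 RPKM.

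For the type 2 cytokines, differences from IL-33 were tested. A gene was called at a fold above 1.5 and an adjusted *P* under 0.05 by the quasi-likelihood test of edgeR, with Benjamini-Hochberg adjustment over every gene tested. With NMU 3 of 4 rose, *Il9* by 4.28 (SE 0.42), *Il4* by 3.22 (SE 0.36), and *Il13* by 2.79 (SE 0.29) on the log2 scale, with adjusted *P* = 0.00264, 0.00485, and 0.00306. *Il5* was at 1.61 (SE 0.27, adjusted *P* = 0.0746 in edgeR and 2.45e-08 in DESeq2, which called all 4 with NMU and 1.34% of all genes). NMU called 13 of 12567 genes, all higher, which is 0.103%. With CGRP *Il4* rose by 3.69 (SE 0.33, adjusted *P* = 0.00141), *Il9* fell by 5.01 (SE 0.96, adjusted *P* = 0.0408), and *Il5* (0.56, SE 0.14) and *Il13* (-1.75, SE 0.56) did not pass in edgeR. DESeq2, which called 8.23% of genes with CGRP, called *Il13* lower (adjusted *P* = 0.0224). CGRP called 230 of 13160 genes, or 1.75%. In a fit with the replicate number as a block, the adjusted *P* of *Il9* with CGRP was 0.0506. Low *Il9* and high *Il17f* thus stood side by side in the WT libraries with CGRP, and the difference between the 2 genes was not tested.

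**Figure D2:**
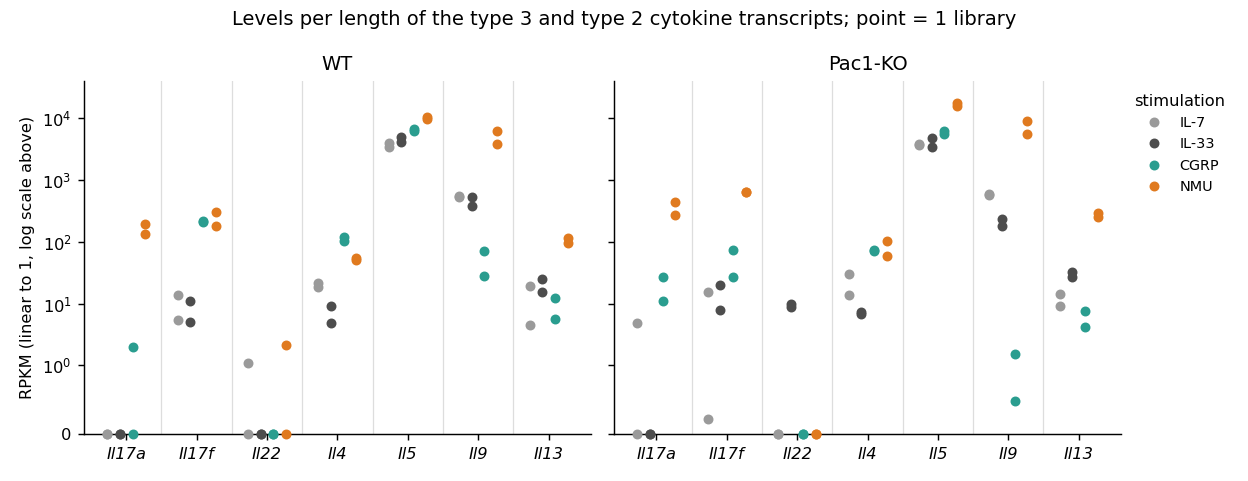
RPKM of the 3 type 3 and the 4 type 2 cytokine transcripts in each library, WT on the left and Pac1-KO on the right, coloured by stimulation, on an axis that is linear up to 1 RPKM and logarithmic above. *Il17a* and *Il17f* with NMU lie above *Il13* in mean level in each genotype and below *Il5* and *Il9*, and with CGRP *Il9* and *Il17f* are apart in opposite directions.

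To ask whether PAC1 matters for these transcripts, genotypes were compared within each treatment. With NMU both IL-17 transcripts were higher in both Pac1-KO libraries than in both WT libraries. Such a gap was seen in 17.6% of 10621 genes tested. The mean of *Il17f* was 2.64 times and that of *Il17a* 2.16 times that of WT. For *Il17f* the log2 fold change was 1.40 (SE 0.36, 95% CI 0.54 to 2.26) and for *Il17a* 1.11 (SE 0.37, 95% CI 0.22 to 2.004). Neither passed edgeR's test over all genes (adjusted *P* = 0.903 for both), which called 3 genes, or 0.0282%. DESeq2, which called 66 genes or 0.621%, called *Il17f* (adjusted *P* = 0.0137) and not *Il17a* (adjusted *P* = 0.224). Over all alternatives the adjusted *P* of *Il17f* ran from 0.0137 to 1, and that of *Il17a* from 0.224 to 1.

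With CGRP the genotypes stood the other way for *Il17f*. Both Pac1-KO libraries were below both WT libraries, as was the case for 17.6% of 10912 genes. The WT mean was 4.204 times the Pac1-KO mean, and the log2 fold change was -2.09 (SE 0.52, 95% CI -3.47 to -0.70). It did not pass edgeR's test (adjusted *P* = 0.552), which called no gene with CGRP, although 822 genes had an unadjusted *P* under 0.05. DESeq2 called 203 genes, or 1.86%, and *Il17f* among them (adjusted *P* = 0.000968). Over all alternatives its adjusted *P* ran from 2.41e-07, with no filter on low counts, to 1, and its log2 fold change from -2.98 to -1.54.

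*Il17a* with CGRP differed in the opposite direction from *Il17f*. Both Pac1-KO libraries were above both WT libraries, a gap that 21.3% of genes had in that direction, and the ratio of means was 19.1. The log2 fold change was 4.21 with a wide interval (SE 2.22, 95% CI -1.72 to 10.1), since 1 WT library had 26 counts and the other none. It passed in neither tool (adjusted *P* = 0.840 in edgeR and 0.343 in DESeq2, range over all alternatives 0.343 to 1). With CGRP, *Il17a* passed the filter on low counts only through the Pac1-KO libraries, where it was higher. Its tests with CGRP therefore cannot decide whether the genotypes differ.

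With IL-7 or IL-33 alone, no genotype difference in *Il17f* exceeded the spread between libraries. The log2 fold change was -0.28 (SE 1.71) with IL-7 and 0.83 (SE 0.72) with IL-33, and the groups overlapped in both. The IL-7 value rests on the first Pac1-KO library, at 5 counts, and on the first WT library: it was 0.70 without the former and 0.54 without the latter. edgeR called 1 gene in each of these comparisons, 0.00916% and 0.00874% of those tested.

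For *Il22* with IL-33, both WT libraries were at 0 and the mean of the Pac1-KO libraries was at least 39.6-fold above the WT floor. A gap in that direction was seen in 19.6% of 11448 genes. edgeR did not call it (adjusted *P* = 0.913) and DESeq2 did (adjusted *P* = 0.00283), as 1 of 65 genes or 0.568%. *Il22* passed the filter on low counts only through the Pac1-KO libraries, where it was high. Its tests with IL-33, also those with a library left out, therefore cannot decide whether the genotypes differ. Without the first WT library it was also called by edgeR (adjusted *P* = 0.0280), with a lone WT library that was assumed to vary like the other group, and over all alternatives the adjusted *P* ran from 0.00283 to 0.999. *Il22* did not pass the filter on low counts with IL-7, CGRP, or NMU, and *Il17a* did not pass it with IL-7 or IL-33.

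**Figure D3:**
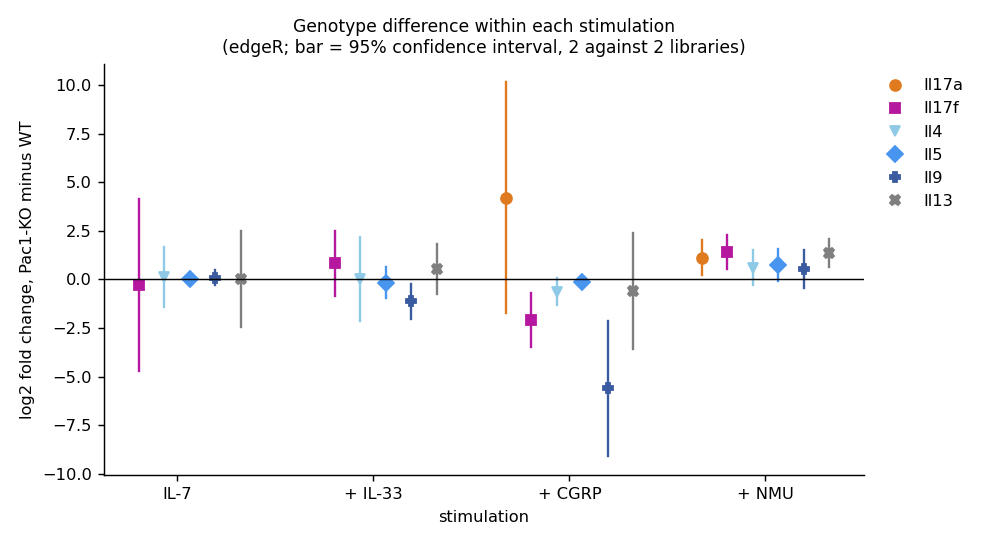
Log2 fold change of Pac1-KO against WT within each stimulation (x axis) for *Il17a*, *Il17f*, and the 4 type 2 cytokines, from edgeR, with bars for the 95% confidence interval and 2 libraries against 2. *Il17f* lies at -2.09 with CGRP and 1.40 with NMU, and *Il17a* is drawn with CGRP and NMU only, where it passed the filter on low counts. With CGRP it passed only through the Pac1-KO libraries.

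Over the 16 libraries taken at once, with treatment in the model, *Il17f* had a log2 fold change of 0.01 between genotypes (SE 0.61, 95% CI -1.30 to 1.31), whose sign changed when single libraries were left out. *Il17a* was higher in Pac1-KO libraries by 3.08 (SE 0.996, 95% CI 0.93 to 5.24) but did not pass (adjusted *P* = 0.799, from 4.48e-14 with no filter on low counts to 0.875 over all alternatives). edgeR called 12 of 14979 genes here, or 0.0801%. *Il22* had 34 counts in the 8 WT and 306 in the 8 Pac1-KO libraries, yet its fitted value was -2.85 (SE 2.61), which turned to 0.29 without the second WT library with IL-7 and to 0.52 without the second WT library with NMU, so that no direction can be read from it.

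Interaction terms tested whether the response itself differed between genotypes. The difference of *Il17f* between CGRP and IL-33 was smaller in Pac1-KO cells, with an interaction of -2.91 on the log2 scale (SE 0.87, 95% CI -4.92 to -0.91). edgeR did not call it (adjusted *P* = 0.853) and called no gene of 13160, with 719 at an unadjusted *P* under 0.05. DESeq2 called it (adjusted *P* = 0.0489), with 113 genes or 0.859% called, and the range over all alternatives was 0.00575 to 1. The difference between NMU and IL-33 gave an interaction of 0.56 (SE 0.71, 95% CI -1.03 to 2.15), which neither tool called (adjusted *P* = 0.928 in edgeR and 0.922 in DESeq2, range over all alternatives 0.740 to 1). edgeR called no interaction with NMU among 12567 genes, with 801 at an unadjusted *P* under 0.05, and DESeq2 called 37, or 0.294%. For *Il17a* and *Il22* these interactions could not be fitted, since at least 1 of the 4 groups had no counts.

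The contrast of the 2 neuropeptides was added after the values had been seen. The genotype difference of *Il17f* was greater with NMU than with CGRP by 3.46 on the log2 scale (SE 0.64, 95% CI 1.97 to 4.95). It was not called by edgeR with all 8 libraries (adjusted *P* = 0.450), which called no gene, with 845 of 12834 at an unadjusted *P* under 0.05. It was called by edgeR without the first Pac1-KO library with CGRP (adjusted *P* = 0.0179, log2 4.37) and by DESeq2 (adjusted *P* = 7.34e-06), which called 164 genes or 1.28%. Over all alternatives the value stayed between 2.97 and 4.37, with adjusted *P* from 1.13e-10 to 0.783. Of 9454 genes tested in both treatments, 296 genes or 3.13% had the same pattern as *Il17f*, with both Pac1-KO libraries below WT with CGRP and above WT with NMU. For *Il17a* the same term was -3.08 (SE 1.32, 95% CI -6.14 to -0.02), on few counts with CGRP, and was called with no filter on low counts alone (adjusted *P* = 0.717 in edgeR, range 0.000667 to 1).

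The type 2 cytokines were compared by genotype in the same way. With NMU the log2 fold change of Pac1-KO against WT was 1.34 (SE 0.31) for *Il13*, 0.73 (SE 0.35) for *Il5*, 0.61 (SE 0.38) for *Il4*, and 0.53 (SE 0.41) for *Il9*. With CGRP *Il9* was at -5.61 (SE 1.31) and *Il4* at -0.63 (SE 0.26). None of the 4 was called by edgeR in either treatment (adjusted *P* from 0.552 to 1), and DESeq2 called *Il13* with NMU (adjusted *P* = 0.0188) and *Il9* with CGRP (adjusted *P* = 0.00228). *Il9* and *Il4* were, like *Il17f*, lower in both Pac1-KO libraries than in both WT libraries with CGRP, a gap seen in 17.6% of 10912 genes. *Il4*, *Il5*, and *Il13* were, like *Il17f*, higher in both Pac1-KO libraries with NMU, a gap seen in 17.6% of 10621 genes, and *Il9* overlapped. *Il4* thus had the pattern of *Il17f* in both treatments, which 3.13% of 9454 genes had.

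Factors known to drive type 3 cytokines were present mostly as those that ILC2s also use. *Rora*, a nuclear receptor required by ILC2s, ran from 728 to 1802 CPM. Of 15 transcription factors that promote these cytokines, all tested, none was called by edgeR with NMU (median log2 fold change -0.28, beside -0.07 over all genes tested). With CGRP 1 rose and 1 fell (median 0.18, beside -0.09). *Nfkbiz*, which encodes IκBζ, rose by 2.10 (SE 0.25, adjusted *P* = 0.00556), from a mean of 136 to 578 CPM. *Batf*, an AP-1 factor needed for Th17 cells, fell by 1.71 (SE 0.33, adjusted *P* = 0.0438). It was no longer called with either WT library with IL-33, the first Pac1-KO library with IL-33, or the second Pac1-KO library with CGRP left out (adjusted *P* = 0.0534, 0.0701, 0.112, and 0.0537), nor with a replicate block (0.0659). The most abundant of the others were *Crem*, a target and modulator of cAMP signaling (0.79 with CGRP and -0.08 with NMU), *Rora* (0.68 and -0.44), *Hif1a*, the hypoxia factor (-0.28 and -0.28), and *Ikzf3*, which encodes Aiolos (0.70 and -0.66), none of which passed in edgeR. DESeq2 called 6 of the 15 with CGRP, 4 higher and 2 lower, and 1 with NMU. The 1 with NMU was *Irf4*, which was higher (log2 1.83, SE 0.40, adjusted *P* = 0.00212, and 0.246 in edgeR). It had 38.6 to 139 CPM with NMU and 17.6 to 31.4 CPM with IL-33. With CGRP, DESeq2 called *Irf4* lower (-2.10, SE 0.59, adjusted *P* = 0.00689, and 0.142 in edgeR), at 2.43 to 8.25 CPM.

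Of 11 restrainers of type 3 cytokines, 10 were tested, and the 11th, *Tbx21*, which encodes T-bet, was at 0 in every library. None was called by edgeR with NMU (median -0.39), and DESeq2 called *Egr2*, a zinc finger factor, higher (log2 5.88, SE 1.17, adjusted *P* = 2.28e-06, and 0.175 in edgeR). *Egr2* had 7.38 to 11.8 CPM with NMU and at most 0.446 CPM with IL-33. With CGRP *Zfp36*, which encodes the mRNA decay factor tristetraprolin, rose by 2.75 (SE 0.33, adjusted *P* = 0.00627), and the median was 0.70. The ILC2 master factor *Gata3* was at -0.05 with CGRP and -0.33 with NMU, *Ets1* at -0.25 and -0.45, *Zfp36l1* at 0.42 and -0.21, and *Rc3h1*, which encodes Roquin-1, at -0.32 and -0.50, without passing. *Zfp36* had 73.2 to 102 CPM in the libraries with CGRP, 9.22 to 17.7 CPM with IL-33, and 18 to 20.6 CPM with NMU.

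Of 16 receptors of inducing signals, 14 were tested and none was called by edgeR with either neuropeptide (median 0.10 with CGRP and -0.58 with NMU). *Il23r*, whose product binds the classical inducer of IL-17 in ILC3s, did not exceed 10.2 CPM and was at 0 in 8 libraries, all 4 with CGRP among them. *Nmur1*, the NMU receptor of ILC2s, had a mean of 4.61 CPM over all libraries. The components of the CGRP receptor were more abundant, with means of 114 CPM for *Calcrl* and 206 CPM for *Ramp1*. *Calcrl* was at 2.52 with NMU (SE 0.45, adjusted *P* = 0.113 in edgeR and 9.08e-07 in DESeq2, which called 3 of the 14 with NMU). DESeq2 also called *Il1rap* lower (-5.38, SE 1.14, adjusted *P* = 3.16e-06, and 0.218 in edgeR) and *Il7r* lower (-0.99, SE 0.23, adjusted *P* = 0.00293, and 0.294 in edgeR) with NMU. *Il1rap* had 15.1 to 26.3 CPM with IL-33 and at most 1.08 CPM with NMU. With CGRP DESeq2 called *Tgfbr2*, a TGF-β receptor subunit, lower (-1.53, SE 0.53, adjusted *P* = 0.0358, and 0.232 in edgeR). The most abundant receptors were *Il1rl1*, the IL-33 receptor (0.62 with CGRP and -0.51 with NMU), *Il2rg* (-0.89 and -0.12), *Il7r* (0.35 and -0.99), and *Ramp3* (-0.14 and -0.89), none of which passed in edgeR.

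**Figure D4:**
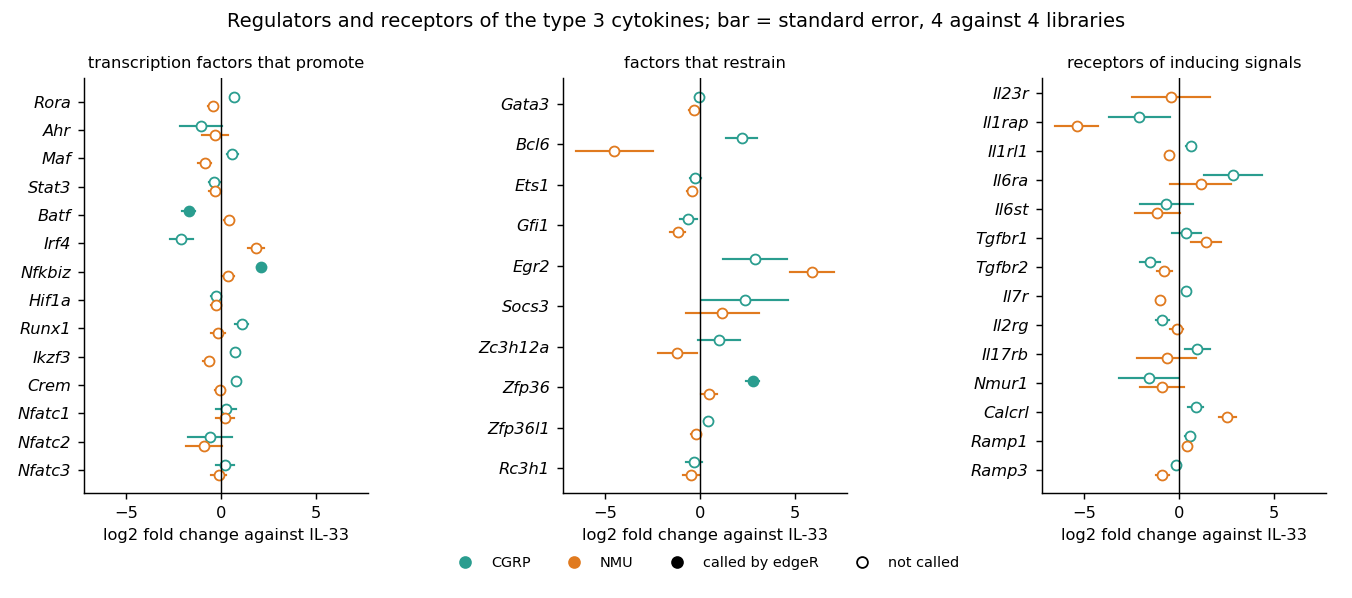
Log2 fold change against IL-33 of tested transcription factors, restrainers, and receptors, with CGRP in green and NMU in orange, bars for the standard error over 4 against 4 libraries, and filled points for genes called by edgeR. *Nfkbiz* and *Zfp36* are filled above 0 and *Batf* below 0, all with CGRP, and no point for NMU is filled, and a gene at 0 in a whole treatment is not drawn for it.

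Other ligands of the families were nearly absent. Of 9 further IL-17 and IL-22 family ligands in the table, *Il17c*, *Il17d*, and *Il25* were at 0 in all libraries, 1 passed the filter in a comparison with a neuropeptide and was not called, and the highest was *Il19* at up to 6.36 CPM. Of 6 other products of type 3 lymphocytes, 4 were tested against IL-33 and none was called by edgeR. *Csf2*, which encodes GM-CSF, was the most abundant, with a mean of 1044 CPM with IL-33, 2126 CPM with CGRP, and 3301 CPM with NMU. DESeq2 called it higher with CGRP (log2 1.13, SE 0.26, adjusted *P* = 0.000204, and 0.0728 in edgeR) and not with NMU (adjusted *P* = 0.327), and called it higher in Pac1-KO than in WT libraries with NMU (log2 1.81, SE 0.45, adjusted *P* = 0.000799, and 0.903 in edgeR). *Lta* and *Ltb*, which encode the lymphotoxins, and *Tnf* had mean levels of 26.4, 14.9, and 13.6 CPM over all libraries. *Il21* and *Ccl20* were at 0 in 15 and 14 libraries.

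The receptors for the cytokines were incomplete in these cells. *Il17ra* ran from 5.40 to 36.9 CPM, but *Il17rc*, its partner for IL-17A and IL-17F, did not exceed 3.40 CPM, and *Il22ra1* was at 0 in 15 of 16 libraries. *Il10rb*, *Jak1*, and *Tyk2*, which serve other cytokines too, had mean levels of 20.4, 429, and 6.94 CPM. Of the 10 receptors and transducers, 5 were tested with NMU and 6 with CGRP, and none was called by either tool.

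The identity of the cells was checked against marker lists. Of 13 ILC2 markers, 12 were above the floor in every library, and their sum ran from 11963 to 34229 CPM. Of 8 ILC3 markers, 2 (*Kit* and *Tnfsf11*, which ILC2s can also express) were above the floor in every library, while *Ccr6* and *Ncr1* did not exceed 0.733 and 2.70 CPM. The ILC3 list summed to 78.0 to 108 CPM with NMU, where *Il17a* and *Il17f* were highest, and to 99.8 to 220 CPM with IL-33. It summed to 202 to 234 CPM in WT and 186 to 205 CPM in Pac1-KO libraries with CGRP, where *Il17f* was also high. Most of these sums was *Kit* and *Tnfsf11*, at 63.1 to 84.0 and 10.3 to 22.7 CPM with NMU. With CGRP these 2 genes had 69.9 to 164 and 57.2 to 116 CPM. DESeq2 called *Tnfsf11*, which encodes RANKL, higher with CGRP (log2 2.21, SE 0.48, adjusted *P* = 0.00020, and 0.0608 in edgeR). Its part in the difference of *Il17f* was not tested.

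Of 11 T cell markers tested by genotype over all 16 libraries, 1, *Trdc*, was called, by both tools. The median log2 fold change of the 11 was -0.22, beside 0.03 over all genes tested. The constant segment of the δ chain, *Trdc*, which marks γδ T cells but is also transcribed in ILCs, was higher in both Pac1-KO libraries than in both WT libraries in every treatment. It had 2.62 and 1.89 CPM in WT and 21.9 and 14.6 CPM in Pac1-KO libraries with NMU, and 0.889 and 0.110 CPM and 10.1 and 5.16 CPM with CGRP. Across all 16 libraries it rose by 3.28 in Pac1-KO libraries (SE 0.45, adjusted *P* = 0.00396). The γ chain segment *Tcrg-C2* was also higher in Pac1-KO libraries with CGRP, at 0.0889 and 0.876 CPM in WT and 29.1 and 26.9 CPM in Pac1-KO libraries (log2 5.83, SE 1.497, adjusted *P* = 0.00236 in DESeq2 and 0.552 in edgeR). With NMU it stood the other way, at 3.85 and 6.57 CPM in WT libraries and at 0 in both Pac1-KO libraries, which neither tool called. Another γ chain segment, *Tcrg-C1*, was lower in Pac1-KO libraries with IL-33, which DESeq2 called and edgeR did not. It had 109 and 174 CPM in WT and 40.5 and 23.9 CPM in Pac1-KO libraries. Other members of the T cell list were abundant throughout, with means over all libraries of 369 CPM for *Trbc2*, 242 CPM for *Trbc1*, 204 CPM for *Tcrg-C4*, and 119 CPM for *Cd3g*. By contrast, *Cd8a* was at 0 in every library, *Cd4*, *Cd5*, and *Cd6* did not exceed 0.506 CPM, and *Cd3e* reached 8.97 CPM with IL-7 and at most 3.20 CPM elsewhere. The 15 T cell markers summed to 649 to 972 CPM in WT and 779 to 1376 CPM in Pac1-KO libraries with NMU, which overlap, and 10 of them were detected in each genotype. With CGRP they summed to 898 to 905 CPM in WT and 888 to 1072 CPM in Pac1-KO libraries. The part of cells with *Trdc* or *Tcrg-C2* in the IL-17 levels was not tested.

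Transcripts of other lineages also differed between libraries. With NMU, the 5 epithelial markers summed to 171 to 308 CPM in WT and 35.4 to 54.1 CPM in Pac1-KO libraries, with *Sftpc*, the surfactant gene of alveolar cells, at 178 and 94.5 CPM in WT libraries, and at 0.191 CPM and 0 in Pac1-KO libraries. *Scgb1a1* was also higher in WT libraries, at 90.5 and 40.8 CPM against 9.55 and 2.79 CPM. *Epcam* overlapped between the genotypes, at 39.1 and 35.9 CPM in WT and 25.7 and 51.3 CPM in Pac1-KO libraries. The 8 myeloid markers summed to 39.6 to 123 CPM in WT and 2.79 to 16.05 CPM in Pac1-KO libraries with NMU. Most of the WT sum was *Lyz2* alone, at 112 and 27.9 CPM in WT and at 0 in Pac1-KO libraries. *Cd68* overlapped between the genotypes, at 11.4 and 10.8 CPM in WT and 13.1 and 1.62 CPM in Pac1-KO libraries. *S100a8* was at 0 throughout, as was *Sftpb* among the epithelial markers. With CGRP, the 5 B cell markers summed to 35.4 to 78.1 CPM in WT and 270 to 282 CPM in Pac1-KO libraries. The 6 NK and ILC1 markers reached 118 to 239 CPM with IL-7 and at most 5.29 CPM in the other treatments. Most of the sum with IL-7 was *Gzma* alone, at 112 to 222 CPM, and *Tbx21* was at 0 throughout. edgeR called *Sftpc* lower in Pac1-KO than in WT libraries with NMU and higher with NMU than with IL-33, where DESeq2 did not (adjusted *P* = 0.189). It called *Cd79b* and the ILC2 product *Areg*, which encodes amphiregulin, higher with CGRP than with IL-33 (log2 3.19 and 2.09), and *Cd3d* lower with IL-33 than with IL-7 (-3.27), where 6 of 12980 genes or 0.0462% were called. With all 16 libraries in 1 fit, *Sftpc*, *Cd79b*, and *Cd3d* were not called in these treatment comparisons, and *Cd3d* not with a replicate block. The part of these transcripts, or of cells that carry them, in the differences of *Il17a*, *Il17f*, and *Il22* was not tested.

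**Figure D5:**
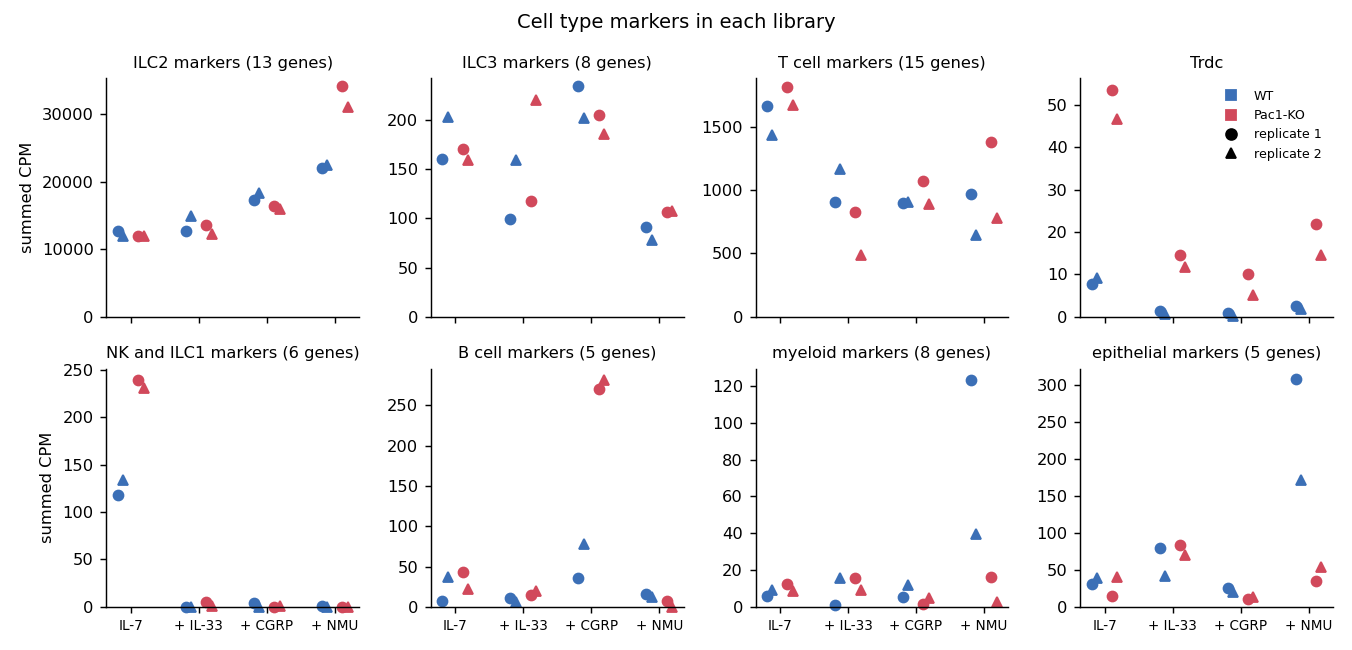
Summed CPM of each marker list, and CPM of *Trdc*, in each library by stimulation, with WT in blue, Pac1-KO in red, and circles and triangles for replicates 1 and 2. *Trdc* is higher in Pac1-KO libraries in all 4 treatments, and B cell markers stand out in Pac1-KO libraries with CGRP. The myeloid sum, most of it *Lyz2*, and the epithelial sum, through *Sftpc* and *Scgb1a1*, stand out in WT libraries with NMU.

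Genes whose pattern was most like that of each member were sought among 14979 genes by Pearson correlation of log2 CPM over the 16 libraries, which share treatments and genotypes, so that no *P* value is given. For *Il17a* they were *Ccl3* (0.894), a chemokine at 12.8 to 186 CPM with NMU and at most 1.80 CPM elsewhere, *Il5* (0.850), *Calcrl* (0.822), *Tigit* (0.820), an inhibitory receptor, and *Cd36* (0.814), a fatty acid transporter. For *Il17f* they were *Cd27* (0.886), a costimulatory receptor, *Cxcl2* (0.873), a neutrophil chemoattractant, *Arg1* (0.858), arginase, *Il5* (0.847), and *Srsf3* (0.828), a splicing factor. *Cd27* had 1.48 to 15.9 CPM without a neuropeptide and 31.1 to 57.8 CPM with one, so it separated the treatments as *Il17f* did. For *Il22* they were *Pheta2* (0.947), *Armh3* (0.919), *Tas1r3* (0.880), *St18* (0.868), and *Igkv9-124* (0.848), all at 0 in 9 to 14 libraries, and the likeness is that of a few libraries with counts. *Il17a* and *Il17f* correlated with each other at 0.601, and *Il22* at -0.250 with *Il17a* and -0.167 with *Il17f*.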

How the data were processed

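The authors aligned the reads of the mRNA-Seq libraries to mm10 with HISAT2 and deposited raw read counts per Ensembl gene. The counting tool, annotation, use of strand, and treatment of duplicates are not given in the sources used here. Groups and replicate numbers came from the sample labels. Symbols and positions came from GENCODE M21 (GRCm38), in which 51633 of 51912 identifiers had a symbol, and upstream sequences from RefSeq (GRCm38.p6), which held all 3 members. The mice were on a C57BL/6J background, and the knockout was not limited to ILC2s.

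Tests used edgeR 4.0.16 in R 4.3.3 (quasi-likelihood test, TMM, filterByExpr by group), with the libraries of 1 comparison in each fit and a fold above 1.5 and a Benjamini-Hochberg adjusted *P* under 0.05, the cutoff of the study. The alternatives were DESeq2 1.42.0 on the same genes, RLE size factors, no filter, the adjusted *P* alone, a replicate block, all 16 libraries in 1 fit, 1 genotype alone, and leaving out each library. RPKM divided TMM-scaled CPM by the summed exon length. Correlations were of log2 CPM (prior count 2). Shared stretches were searched with BLAST 2.17.0 at 90% identity or more over 100 bases or more. The tests were tested on simulated data.

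The members and gene lists were chosen with earlier results of these data known. Genes named were the members, *Dusp2*, listed genes called in a treatment comparison (up to 8 each), up to 4 more of highest mean CPM per list, markers at 0, and the 5 genes most like each member. *Il23r*, *Nmur1*, *Ramp1*, *Trdc*, *Il17rc*, *Il22ra1*, *Il21*, *Ccl20*, *Cd4*, *Cd5*, *Cd6*, *Cd3e*, *Kit*, *Tnfsf11*, *Ccr6*, *Ncr1*, *Egr2*, *Tgfbr2*, *Il1rap*, *Tcrg-C1*, *Tcrg-C2*, *Irf4*, *Lyz2*, *Cd68*, *Scgb1a1*, *Epcam*, and *Gzma* were chosen after their values were seen. One listed gene counts in its lists but is not reported here by itself.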

Additional observations from a re-analysis of the deposited data

Results flagged for a closer look

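For *Il17f*, the genotype difference differed between treatments. Its Pac1-KO libraries lay below WT with CGRP and above WT with NMU, and the interaction term was 3.46 on the log2 scale between NMU and CGRP and -2.91 between CGRP and IL-33. The adjusted *P* values were 0.450 and 0.853 in edgeR and 7.34e-06 and 0.0489 in DESeq2, with ranges over all alternatives of 1.13e-10 to 0.783 and 0.00575 to 1. On the same filtered genes, the difference passed a test of its own in DESeq2 and not in edgeR. The first of these contrasts was chosen after the values were seen. *Trdc* was higher in Pac1-KO libraries in all 4 treatments, and B cell markers were higher in Pac1-KO libraries with CGRP. The myeloid sum, most of it *Lyz2*, and the epithelial sum, through *Sftpc* and *Scgb1a1*, were higher in WT libraries with NMU. The part of these transcripts in the pattern was not tested.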

How the results depend on the processing

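Of the tests of the members, 71 of 81 alternatives that kept all libraries left direction and call as they were and 10 turned a difference that was not called into a called one. None of them turned a direction. RLE size factors, all 16 libraries in 1 fit, and the adjusted *P* alone changed no member's call. DESeq2 called *Il17f* in Pac1-KO against WT with CGRP (-2.10) and with NMU (1.41), in the interaction of genotype with CGRP (-2.90) and between NMU and CGRP (3.46), and *Il22* with IL-33 (adjusted *P* = 0.00283). With no filter on low counts, edgeR called *Il17f* with CGRP (-2.09) and in the 2 interactions (-2.94 and 3.48), and *Il17a* over 16 libraries (3.21) and between NMU and CGRP (-3.07). The cause was not tested.

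The replicate numbers shared by the groups mark no stated pairing. Over 28 pairs of groups, the correlation of same-numbered deviations ran from -0.0641 to 0.039 (median -0.000352), with 0 pairs over 0.1. The replicate block called 0 genes in Pac1-KO against WT with IL-7 and 2 between NMU and CGRP, and changed no member's call. *Batf* and *Il9* with CGRP and *Cd3d* with IL-33 were no longer called under it.

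Counts of called genes moved with the tool. For Pac1-KO against WT with IL-7, IL-33, CGRP, NMU, and over 16 libraries, DESeq2 called 78, 65, 203, 66, and 77 genes and edgeR without a filter 28, 18, 82, 32, and 62. For the interactions with NMU, with CGRP, and between NMU and CGRP, the counts were 37, 113, and 164 with DESeq2 and 20, 44, and 90 without a filter. For NMU against IL-33, CGRP against IL-33, and IL-33 against IL-7, they were 169, 1083, and 423 with DESeq2 and 77, 639, and 201 without a filter. With all 16 libraries in 1 fit, edgeR called 16 genes in Pac1-KO against WT with CGRP, 5 between NMU and CGRP, 28 for NMU against IL-33, and 413 for CGRP against IL-33. On WT libraries only it called 2, 0, and 0 genes for NMU, CGRP, and IL-33, and on Pac1-KO libraries only 3, 0, and 0.

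When libraries were left out singly, the counts ran from 0 to 103 for Pac1-KO against WT with IL-33, from 1 to 77 with NMU, and from 10 to 16 over 16 libraries, and were 0 with IL-7 and with CGRP. They ran from 0 to 21, 0 to 56, and 0 to 36 for the interactions, in the order above, from 15 to 38 for NMU against IL-33, from 133 to 243 for CGRP against IL-33, and from 12 to 37 for IL-33 against IL-7. *Il17f* in Pac1-KO against WT ran from -5.44 to 0.70 with IL-7 and from -0.42 to 0.33 over 16 libraries, its interaction with NMU from -0.11 to 1.39, and that between NMU and CGRP from 2.97 to 4.37. *Il22* ran from -4.11 to 0.52 over 16 libraries, and its adjusted *P* with IL-33 from 0.0280 to 0.999. *Il17f* in IL-33 against IL-7 ran from -0.21 to 1.19, and was -0.27 on WT libraries only.

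With total counts as library sizes, the means moved beyond 1 SD for *Il17f* in WT with CGRP (393 CPM), *Il17f* in Pac1-KO with NMU (1234 CPM), and *Il22* in Pac1-KO with IL-33 (12.5 CPM). Of the 5 genes most like each member, means of the 8 groups kept 0 for *Il17a*, 0 for *Il17f*, and 3 for *Il22*, and rank correlation kept 1 for *Il17a* and 2 for *Il22*. Depth limits *Il22*, for which 12 of 16 libraries had no count.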
